A study of Homo sapiens with 2 samples.

Results

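TRIO is a large guanine nucleotide exchange factor, an enzyme that switches on small GTPases by making them release GDP and take up GTP. The TRIO gene held 22 of the 1489 peaks, in 718 genes, that were called after pull-down of tagged PQBP1 from HEY cells. The peaks were chosen by the gene name in the annotated list (TRIO, gene identifier 7204, plus strand of chromosome 5), and the gene itself was picked from measured values of this list because of its many peaks. Its peak number, exon share and heights are therefore a description and carry no test.

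PQBP1 is a nuclear polyglutamine binding protein of the precatalytic spliceosome. HEY, an established human ovarian cancer line, overexpressed PQBP1 with FLAG and Spy tags in both libraries, and all cells were irradiated with ultraviolet light at 400 mJ per cm2 to fix protein to RNA. Nuclei were taken before lysis, RNA was trimmed by RNase I, and 1 library was made without antibody (Input) and 1 after FLAG pull-down (IP). The peak list belongs to the IP library, Input values were not analysed here, and there was 1 library a group, so no difference could be tested. Peak number and height were not set against the amount of each RNA present. They are therefore not measures of binding strength, between genes or between exon and intron. All cells carried the tagged protein, so binding of PQBP1 at its natural level was not measured. In total 39952 reads lay in peaks, and this is the only depth known. Of 10 marker genes looked up, 9 for epithelial and ovarian carcinoma cells and the mesenchymal VIM, peaks were found in KRT7, KRT8 and VIM and in none of the other 7, which says little about the cells because a peak list does not measure expression.

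The TRIO protein holds a row of spectrin repeats, then a pair of exchange factor modules, and a protein kinase domain at its end. Through these GTPases TRIO shapes the actin cytoskeleton, and it is known for its part in axon guidance and cell migration. The gene is very long and almost all of it is intron. The TRIO gene model (GENCODE transcript ENST00000344204.9) spans 366.9 kb with 57 exons that add up to 11.5 kb, or 3.12% of the span. In this respect TRIO came last among the 16 genes that had 10 or more peaks, where the others had between 4.97% (DST) and 60.7% exon (AHNAK). An exon of TRIO has a median length of 132 nt and only 9 of the 57 reach 200 nt, so a 200-nt bin that the list calls exon usually also holds intron sequence.

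Positions below are those of the list, counted from 1. They are not GRCh38 positions, although the methods name that build, since 158 of 1421 peaks of the list (11.1%) overlapped their own gene on GRCh38 and 60 peaks ended beyond their chromosome. All 22 TRIO peaks fell inside the span of TRIO on GRCh38, but the gene is so long that this does not settle their build. Peaks were therefore not assigned to numbered exons and no sequence under them is shown. Gene models were used for lengths only.

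TRIO peaks were spread widely and unevenly. The first began at chr5:14291001 and the last ended at chr5:14508400, a distance of 217.4 kb, and the peaks covered 5.4 kb of it (2.48%). Heights are given as mean reads per 200-nt bin, with exact Poisson 95% intervals that cover counting error only. Of the 22 peaks, 19 were 1 bin wide, 2 were 400 nt and 1 was 800 nt. In all, 352 reads lay in them (316.2 to 390.8), which was 0.881% of the reads in peaks of the library.

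The upstream stretch held 4 peaks within 40 kb, all classed as exon and all on the higher side of the list. The first, chr5:14291001-14291200, had 16 reads per bin (9.15 to 26.0). The second, chr5:14297201-14297400, had 18 (10.7 to 28.4). The third lay 19.2 kb further on, at chr5:14316601-14316800, with 12 (6.20 to 21.0), and was the lowest of this stretch. The fourth, chr5:14330801-14331000, had 19 reads (11.4 to 29.7), more than any other 1-bin peak of TRIO, and 89.6% of all peaks of the list were lower. These 4 peaks stood alone, with gaps of 6.0 to 19.2 kb between them and 27.2 kb after the last.

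The middle stretch was denser and lower. It held 9 peaks in 33 kb, 5 in exons and 4 in introns, with a median of 8 reads per bin against 17 upstream. It opened with the exon peak chr5:14358201-14358400 of 17 reads (9.90 to 27.2). Intron peaks of 6 reads (2.20 to 13.1) and 8 reads (3.45 to 15.8) followed at chr5:14364001-14364200 and chr5:14367001-14367200. Next came an exon peak of 13 reads (6.92 to 22.2) at chr5:14368801-14369000 and one of 6 reads at chr5:14381201-14381400. Here an exon peak was thus no higher than the lowest intron peaks.

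This stretch closed with a row of 4 peaks inside 3.4 kb, where the class changed from exon to intron. The exon peak chr5:14387801-14388000 had 11 reads (5.49 to 19.7) and the exon peak chr5:14389401-14389600 had 8. The intron peaks chr5:14390201-14390400 and chr5:14391001-14391200 had 8 and 6 reads. The last 3 were 600 nt apart from each other, the smallest gaps in the gene, and their intervals overlapped throughout.

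Then came 69.8 kb without a peak, 32.1% of the whole span. The third of 4 equal parts of the span (54.4 kb each) held 0 peaks and the last held 9. In the TRIO gene model 1 of the 56 introns is longer than this gap (126.9 kb), and the next longest is 41.0 kb. The nearest exon peaks on either side, chr5:14389401-14389600 and chr5:14461001-14461400, lie closer together than 126.9 kb. If their exons belong to the gene model, that intron does not span the gap, and the gap then includes exons. The list begins at 6 reads per bin, so the gap means that no bin passed the authors' limit, not that reads were absent.

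The downstream stretch held most of the reads, 204 of 352 (58.0%), in 9 peaks over 47.4 kb. All 3 peaks wider than 1 bin lay here and had 143 of these reads. By median height the stretch was not the highest, with 13 reads per bin against 17 upstream. Its first peak, chr5:14461001-14461400, was the highest of TRIO at 25.5 reads per bin (19.0 to 33.5), and 71 peaks of the list were higher. An intron peak of 7 reads (2.81 to 14.4) at chr5:14472601-14472800 and an exon peak of 6 at chr5:14480001-14480200 came next. They were among the lowest of the gene and lay 11.2 and 18.6 kb from that highest peak.

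The widest peak, chr5:14487601-14488400, had 17 reads per bin (13.2 to 21.6) over 4 bins, 68 reads in all. It was 800 nt wide. In the TRIO gene model only the last exon (2325 nt) is longer than that, and exon 48, at 797 nt, is the next longest. No other exon exceeds 541 nt. Exon peaks followed it downstream on the plus strand, the next after a gap of 4.2 kb. If the exons under them belong to the gene model, the 800-nt peak does not lie in the last exon. Which exon it covers was otherwise not determined, as positions were not placed on the model.

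The remaining 5 peaks sat within 15.8 kb at the end and were of even height. The exon peaks chr5:14492601-14492800 and chr5:14498201-14498400 had 13 reads each and the exon peak between them, chr5:14497001-14497200, had 9 (4.12 to 17.1). The intron peak chr5:14504401-14504600 also had 13 reads (6.92 to 22.2), more than any other intron peak of TRIO and level with 3 of the exon peaks. The last, chr5:14508001-14508400, had 12 reads per bin (7.69 to 17.9) over 2 bins.

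**Figure D1:**
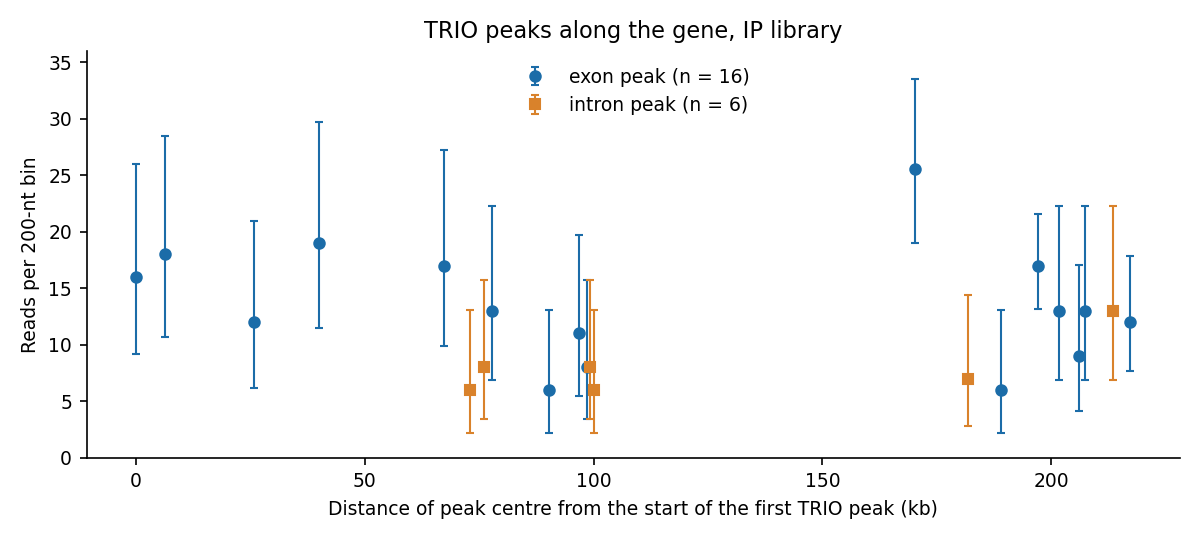
Reads per 200-nt bin (vertical axis) of the 22 TRIO peaks against the distance of each peak centre from the start of the first (kb). Points are peaks, coloured by exon (16) or intron (6), and bars are exact Poisson 95% intervals. The 69.8-kb gap separates 13 peaks from the last 9, which hold the highest (25.5) and 58.0% of the reads.

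By class, 16 of the 22 peaks were exon (72.7%, Wilson 95% interval 51.8 to 86.8) and 6 were intron. For comparison, 61.7% of the 214 peaks in the 15 other genes with 10 or more peaks were exon, and 62.3% of all peaks outside TRIO. Those shares count UTR and other peaks, which TRIO lacks. Of exon and intron peaks alone, exon peaks made up 72.7% in TRIO, 65.7% in the 15 genes and 69.4% outside TRIO. All 4 comparison values lie within the interval of TRIO. Its share equalled that of SRRM2 (72.7%, 8 of 11) and was below those of AHNAK, MYH9 and MACF1 on either basis, and below that of FLNA (73.3%) among exon and intron peaks alone, where TRIO had rank 5 of 16. No TRIO peak was classed as UTR, against 100 peaks (6.72%) in the whole list. This was not particular to TRIO, as 6 of the 15 other genes also had no peak outside exon and intron.

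Exon peaks were the higher ones in TRIO, with overlap. The 16 exon peaks ran from 6 to 25.5 reads per bin with a median of 13, and the 6 intron peaks from 6 to 13 with a median of 7.5. Of the exon peaks 14 exceeded the intron median, and the other 2 had 6 reads. On the log2 scale, reads per bin averaged 3.65 over the exon peaks (SD 0.59) and 2.95 over the intron peaks (SD 0.41). Exon peaks were thus 0.70 log2 units higher, a ratio of 1.62, and counting error alone gave this difference a 95% interval of 0.23 to 1.17. That interval takes no account of the floor of the list at 6 reads per bin, where peaks of both classes stood. Peaks of 1 gene in 1 library are not replicates, and no test was made. Without the highest peak the difference was 0.63, and among 1-bin peaks alone 0.59. It fell to 0.22 at a p-value limit of 0.001 and with a minimum of 10 reads per bin, where 1 intron peak was left.

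Other genes differed much in this value. Among the 15 genes with 10 or more peaks and both classes, the exon minus intron difference in mean log2 reads per bin went from -0.40 (COL1A1, a collagen chain) to 0.87 (MYH9, the heavy chain of nonmuscle myosin), with a median of 0.37 over the 14 other than TRIO. TRIO had rank 3, after MYH9 and UBR4 (0.75) and before MACF1 (0.61). MYH9 had 1 intron peak and MACF1 had 2, so these neighbours rest on few peaks. LAMA5, with 1 peak more than TRIO, had 10 intron peaks and a difference of 0.13. The exon mean of TRIO (3.65) had rank 10 of 16 and its intron mean (2.95) rank 13 of 15. Both lay below the medians of the other genes (3.74 and 3.42), the intron mean by more. That intron mean rests on 6 peaks, the lowest of them at the floor of the list, 6 reads per bin.

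**Figure D2:**
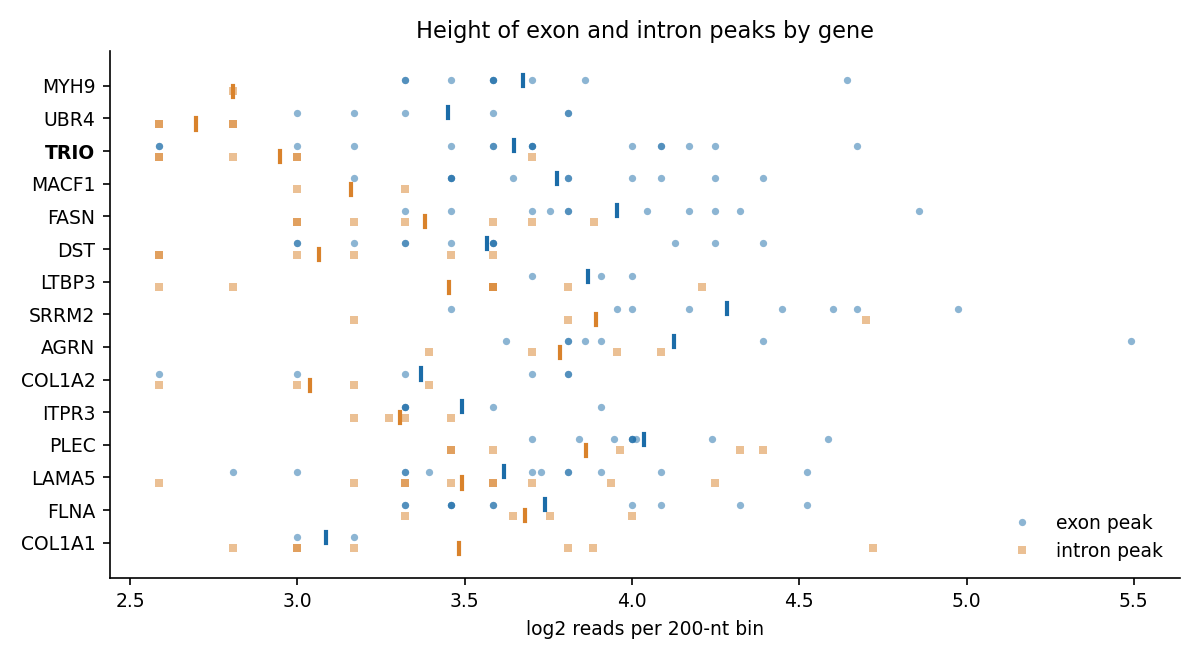
Height of each exon and intron peak (log2 reads per 200-nt bin, horizontal axis) in the 15 genes with 10 or more peaks and both classes, ordered by the difference of the class means, which vertical ticks mark. TRIO has rank 3 from the top, with means of 3.65 and 2.95, and its classes overlap between 6 and 13 reads per bin.

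A limit on height restates the height difference between the classes as counts of peaks and is no further result. In TRIO 13 of 22 peaks (59.1%) had 10 or more reads per bin, against 67.4% of all peaks of the list. These were 12 of 16 exon peaks and 1 of 6 intron peaks. Outside TRIO, 75.6% of exon peaks and 45.7% of intron peaks had 10 reads or more. The number of peaks in TRIO thus rested in part on low peaks. By peak number it had rank 2 of 16 genes over all peaks and rank 7 of the 10 genes that kept 10 peaks once those under 10 reads per bin were left out.

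The p-values that the authors' peak caller gave followed the same order by class but not by height. At a limit of 0.001, 13 TRIO peaks passed (59.1%), against 58.6% of the list. At 1e-05, 9 passed (40.9%), against 35.5% of the list. Of the 9, 8 were exon peaks and 1 was the 13-read intron peak (1.04e-06). The smallest p-value, 5.19e-12, belonged to the 19-read exon peak upstream, whereas the highest peak of TRIO (25.5 reads per bin over 2 bins) had 1.99e-06. The 11-read exon peak had 4.52e-07 and the upstream 12-read peak 4.03e-05. At 13 reads, the 4 TRIO peaks of 1 bin ran from 8.43e-07 to 1.11e-05. All 4 TRIO peaks of 6 reads had 0.0387, as had every 1-bin peak of 6 reads in the list (131). How the background of these p-values was set is not stated, and its part in them was not tested.

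TRIO peaks were widely spaced. The gaps between its peaks, from the end of one to the start of the next, had a median of 6.0 kb (quartiles 2.8 and 11.2, 21 gaps). This was the largest median of the 16 genes, just above UBR4 (5.8 kb) and MACF1 (5.6 kb), which it exceeded by no more than 2 bins. At a p-value limit of 0.001, and also with a minimum of 10 reads per bin, the median gap of TRIO was 12.2 kb and that of UBR4 was 12.4 kb, so TRIO had rank 2. The other 15 had a median of 0.6 kb, and AHNAK had 0.2 kb. The span of 217.4 kb and the gap of 69.8 kb were also the largest, ahead of MACF1 (161.6 kb) and ITPR3 (34.2 kb). By other measures TRIO was not at the end. It had 1.01 peaks per 10 kb of peak span, against 0.804 in MACF1, and its smallest gap (600 nt) was below that of UBR4 (1800 nt). As a share of the peak span its largest gap (32.1%) came after those of ITPR3 (47.1%) and MYH9 (41.1%). Of the 21 gaps of TRIO 2 were under 1 kb and 6 were over 10 kb. In FASN, a compact gene for fatty acid synthase, 16 of 19 gaps were under 1 kb and 0 were over 10 kb. The genes with wide spacing were also long, and how far gene length accounts for the spacing was not tested. DST, whose gene model is longer still (496.8 kb), had a peak span of 124.4 kb and a median gap of 2.8 kb.

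Within TRIO, each intron peak lay between 0.6 and 7.2 kb from an exon peak, with a median of 2.5 kb. The distance from one exon peak to the nearest other had a median of 6.2 kb. Every intron peak lay between exon peaks, so its distance to the nearer one is only a part of a gap between exon peaks. The 2 medians are therefore not like for like and do not show that intron peaks sat near exon peaks. Of the 6 intron peaks, 4 lay in the 33-kb middle stretch and 2 in the downstream stretch. The upstream stretch of 4 peaks held 0. Per length, TRIO had 1.69 intron peaks per 100 kb of intron in the gene model, rank 12 of the 16 genes, against a median of 14.0 in the others and 1.27 in DST.

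**Figure D3:**
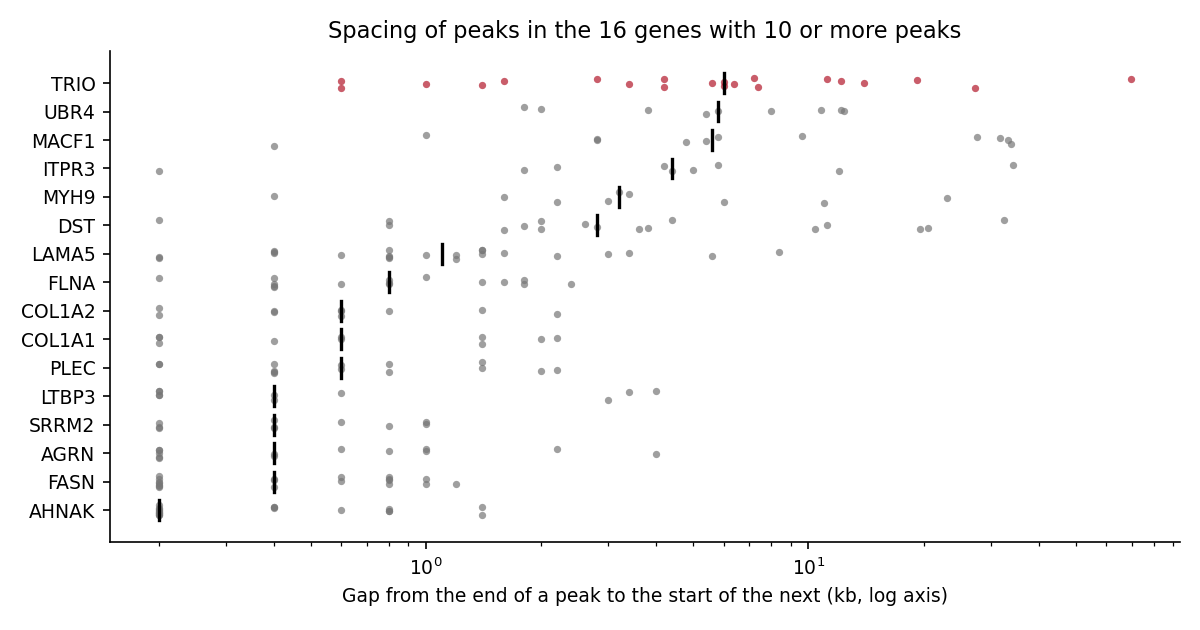
Gaps between neighbouring peaks (kb, log axis) in the 16 genes with 10 or more peaks, ordered by median gap (black tick). Points are single gaps, shifted vertically at random to show overlap. TRIO, at the top, has a median of 6.0 kb and a largest gap of 69.8 kb, while AHNAK, at the bottom, has a median of 0.2 kb.

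Set against its exonic length (11.5 kb, rank 6 of the 16 genes), TRIO had many exon peaks. There were 1.40 exon peaks per kb of exon in the TRIO gene model, the highest value among the 16 genes for the exon class alone, with FASN (1.30) and FLNA (1.29, the actin crosslinker filamin A) next and DST (0.486) and MACF1 (0.452) far lower. The exonic length includes UTRs, whereas the exon class leaves UTR peaks out. In TRIO, however, 15 of the 16 exon peaks were assigned to a noncoding transcript, which has no UTR class. A peak there could count as exon where an mRNA label would make it UTR. The exons of that transcript may also differ from those of the gene model that gave the length, so the density is not fully like for like. With UTR peaks counted, FASN (1.54) and FLNA (1.41) came before TRIO, which kept 1.40 and had rank 3. A count of 16 peaks has wide error, so the order of TRIO, FASN and FLNA is not resolved. The measure also depends on how bins are joined. By the summed width of exon peaks over exonic length TRIO (36.6%) had rank 3 after SRRM2 (77.4%) and PLEC (56.7%), level with AHNAK (36.2%). Bins reach into introns where exons are short, so these percentages overstate the exonic part in TRIO more than in genes with long exons. TRIO and DST both have very low exonic shares but differed 2.87-fold in exon peaks per kb of exon.

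**Figure D4:**
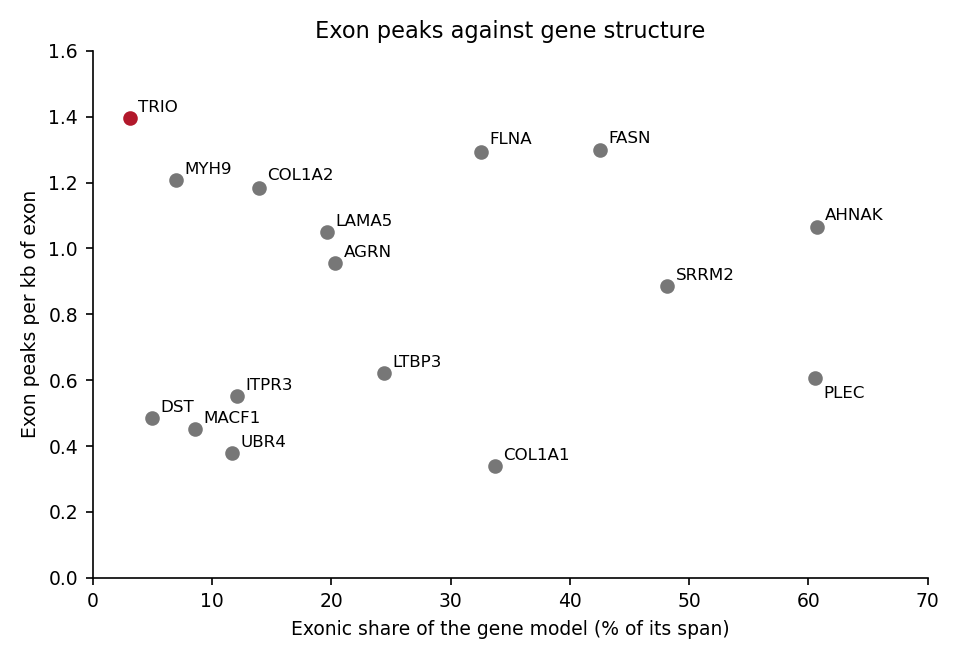
Exon peaks per kb of exon (vertical axis) against the exonic share of the gene model (% of its span, horizontal axis) for the 16 genes with 10 or more peaks, each a labelled point. TRIO has the lowest exonic share (3.12%) and the highest density of the exon class alone (1.40), and DST and MACF1 combine a low share with a density under 0.5.

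TRIO differed from the other 15 genes in the transcripts that the annotation gave to its peaks. Of the 22 peaks, 15 (68.2%) were assigned to NR_134469.1, a noncoding TRIO transcript, and 7 to the protein-coding NM_007118.3. The assignment followed the region class almost fully, with all 6 intron peaks on NM_007118.3 and 15 of the 16 exon peaks on NR_134469.1. The exception was the 800-nt exon peak. In the other 15 genes with 10 or more peaks, 0 peaks had a noncoding type. Across the list, 9 of the 242 genes with 2 or more peaks had both mRNA and ncRNA peaks, and in the other 8 at most 2 peaks were of the ncRNA type. TRIO alone supplied 15 of the 82 peaks of that type (18.3%), and the next gene supplied 6.

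These types are labels of the annotation and not measurements of an isoform. Reads in exons that both transcripts contain cannot be divided between them, and which exons they share was not determined here. The label also limits the region class, because a noncoding transcript has no UTR. In the list 100 UTR peaks were all among the 1338 of mRNA type and 0 among the 82 of ncRNA type. The absence of UTR peaks in TRIO may thus not be compared with other genes. The heights under both labels overlapped, from 6 to 25.5 reads per bin (median 13) on NR_134469.1 and from 6 to 17 (median 8) on NM_007118.3, and this difference cannot be told apart from that of exon and intron.

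The genes most like TRIO were found by the mean difference in rank over 4 quantities (exon share of exon and intron peaks, exon minus intron difference, median height and share of 1-bin peaks) among 15 genes. MYH9 was closest (mean rank difference 1.88), then MACF1 (2.62), and DST and FASN were tied (2.88). MACF1 links actin and microtubules and DST is a related linker. MYH9 equalled TRIO in median height (12 reads per bin), and MACF1 shared its wide spacing, which the measure did not use.

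The 16 genes compared here end at 10 peaks, where 3 genes stood, and 5 genes had 9. On chromosome 5 TRIO held 22 of 86 peaks, and the next gene, MAP1B, held 8.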

How the data were processed

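SpyCLIP-seq libraries of tagged PQBP1 in HEY cells, 1 Input and 1 IP, were grouped by their titles. Per the methods, the authors trimmed reads with Trimmomatic, removed ribosomal RNA, aligned with TopHat (TopHat2 2.0.13 in the submitters' processing notes), used Piranha for peak calling and HOMER for annotation. The read value was deposited by the authors as a signal (coverage) per peak, the mean number of reads per 200-nt bin. In 1457 of the 1489 peaks the value times the number of bins was whole (tolerance 1e-09), and in the rest it was rounded to a whole number of reads. The value was taken as not scaled to depth. The p-value was deposited as the authors' caller gave it, up to 0.0467.

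Peaks of TRIO were compared with the 15 other genes holding 10 or more peaks (Python 3.11.15, pandas 2.3.3, scipy 1.17.1). Intervals were exact Poisson for reads and Wilson for shares. The methods name no molecular identifiers, so reads are not independent molecules and intervals cover counting error only. The interval of the log2 difference used Poisson errors. GENCODE release 44 gave lengths (MANE Select transcripts). Stretches were divided at gaps over 25 kb, a limit chosen after the gaps were seen. Named genes were TRIO, the genes with most peaks, the 3 most alike (with ties) and others with 10 or more peaks. A planned list of pathway genes is not reported here. Members and lists were chosen with earlier results of these data known. Calculations were tested on simulated data. Limits on p-value, height and width, merging and weighting were alternatives.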

Additional observations from a re-analysis of the deposited data

How the results depend on the processing

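Limits on p-value and height moved most of the TRIO results that changed. Peak number fell from 22 to 13 at a p-value limit of 0.001, to 9 at 1e-05 and to 13 when peaks under 10 reads per bin were left out (the read minimum). Exon share rose from 72.7% to 92.3%, 88.9% and 92.3% under the same settings. The exon minus intron difference fell from 0.70 to 0.22 on the log2 scale at 0.001 and with the minimum of 10 reads, where 1 intron peak remained in each. The median gap widened from 6.0 to 12.2 kb in both. The rank of TRIO by peak number went from 2 to 4 (of 9 genes) at 0.001 and to 7 (of 10 genes) with the minimum. Peaks of 1 bin alone held 209 of the 352 reads, as this setting removes the 3 wide peaks. In alternatives chosen after the data were seen, TRIO went from rank 1 to rank 2 by median gap at 0.001 and with the minimum, and from rank 1 to rank 3 by exon peaks per kb of exon with UTR peaks counted. The minimum acts on the height itself, so its effect on the difference follows in part from its construction. Exon share under weighting by reads or nucleotides or in 1-bin peaks (68.4 to 81.8%), median height (11 to 13) and the number of peaks after merging (22 and 19) stayed within their limits, and the difference between exon and intron stayed above 0 in all 6 alternatives. No paired analysis was possible because neither group had a second library. The median TRIO peak had 12 reads per bin. Single TRIO peaks of 1 bin with 6 to 17 reads have intervals wider than their values.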
